A study of Mus musculus with 2 samples.

Results

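Trem2 and 7 other genes of the lipid-associated macrophage programme (Tyrobp, Apoe, Gpnmb, Lgals3, Cd9, Cd63 and Abca1) were followed across the cells of the mouse knee synovium. They were chosen by symbol, and each matched 1 row, so that all 8 members were found among the 32285 gene rows of the deposited matrices. The series held 2 single-cell RNA libraries, 1 from control synovium and 1 from synovium labelled MMS, both from wild type mice and each pooling 20 knees. The sample text gives D14 for the MMS mice and does not spell out either term, and no treatment is named for the controls. The tissue was minced, digested with Liberase TL and DNase I, passed through cell strainers and run on the 10x Genomics 3' kit, in which each captured transcript carries a unique molecular identifier (UMI). With 1 library per group there was no replicate, so no difference between control and MMS was tested: every interval printed covers counting error only, at 95%, and what pooled mice share within a library cannot be told apart from the condition.

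TREM2 is a lipid-sensing receptor on the surface of macrophages, and the adaptor DAP12, encoded by Tyrobp, carries its signal into the cell. Macrophages that take up lipid in fat, plaque and injured nervous tissue are known for a shared set of genes: the lipid carrier Apoe, the cholesterol exporter Abca1, the lysosomal membrane glycoprotein Gpnmb, the galectin Lgals3 and the tetraspanins Cd9 and Cd63. In the mouse joint, Trem2 is known as a gene of the Cx3cr1 macrophages that line the synovium, whereas Lyve1 marks resident macrophages of many tissues.

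Trem2 and Gpnmb turned out to be read from different cells in this tissue, and the 250 bases before their annotated RefSeq starts (build GRCm38.p6, reference sequence, written 5′ to 3′ along the gene) are shown for that contrast. Trem2 (ENSMUSG00000023992) spans chr17:48346401-48354147 on the plus strand, and the window shown is chr17:48346151-48346400. Gpnmb spans chr6:49036546-49070929 on the plus strand, and its window is chr6:49036268-49036517. Capitals mark matches to 4 motifs searched on both strands: GAGGAA (the core bound by PU.1, the macrophage factor), TGANTCA (AP-1), CATGTG and CACGTG (the boxes bound by MITF and TFE factors).
Trem2: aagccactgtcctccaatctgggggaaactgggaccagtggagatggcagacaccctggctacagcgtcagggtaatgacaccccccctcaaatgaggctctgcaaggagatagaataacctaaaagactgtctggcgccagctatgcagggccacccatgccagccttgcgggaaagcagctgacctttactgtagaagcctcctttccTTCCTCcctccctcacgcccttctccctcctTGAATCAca
Gpnmb: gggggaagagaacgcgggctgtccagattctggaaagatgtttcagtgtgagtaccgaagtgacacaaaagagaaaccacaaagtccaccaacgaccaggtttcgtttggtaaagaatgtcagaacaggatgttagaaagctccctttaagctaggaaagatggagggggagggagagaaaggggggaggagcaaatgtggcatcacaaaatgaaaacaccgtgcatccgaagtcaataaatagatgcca
The Trem2 window held a GAGGAA on the minus strand, beginning 40 bases before the start, and a TGANTCA match, TGAATCA, beginning 9 bases before it. The Gpnmb window held none of the 4. Among the other members, GAGGAA also occurred in windows of Apoe and of Cd63, whose UMIs came mainly from fibroblast-like cells. The motif was therefore not limited to genes read from macrophages. The Cd9 window held a CATGTG match and the Abca1 window a CACGTG. Of 32851 promoter windows of this length, 23.3% held GAGGAA, 6.75% TGANTCA, 12.3% CATGTG and 6.02% CACGTG. A match describes letters, not a bound site. RefSeq promoters were found for 7 of the 8 members. In the same build the annotation places Tyrobp at chr7:30413760-30417585, Apoe at chr7:19696109-19699188, Lgals3 at chr14:47367751-47386160, Cd9 at chr6:125460266-125494791, Cd63 at chr10:128900989-128912822 and Abca1 at chr4:53030787-53159895.

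After filtering, 6891 control and 3762 MMS cells were kept, from 84900876 and 85597195 UMIs in all barcodes. The median cell held 10990 UMIs in the control library and 17425.5 in the MMS library, so levels are given as UMIs scaled to the UMI total of a cell group (CPM) and shares of cells after thinning each cell to 2000 UMIs. The libraries shared 6 cell barcodes. The label's cell type, goblet cells, was not borne out: 0 cells of either library carried 2 or more of 8 goblet markers, which allows a share of up to 0.0435% of control and 0.0797% of MMS cells. Clusters were named from markers: 1192 control and 543 MMS cells were macrophage or monocyte-like (Csf1r and C1q genes), and 3198 and 1479 were fibroblast-like. Endothelial-like cells numbered 1641 and 678, and neutrophil-like cells 20 and 309. A further 209 and 37 cells, 3.03% and 0.984% of each library, were set apart by dendritic cell genes and stayed out of the macrophage class. Among them was a cycling sub-cluster led by Hist1h2ap, Top2a and Ube2c (43 and 15 cells). Its top genes against cells outside the macrophage class included Cd209a.

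The 8 genes fell into those read almost wholly from myeloid cells, one read almost wholly from fibroblasts, and 5 spread over several classes. Macrophage or monocyte-like cells were 17.3% of control and 14.4% of MMS cells, yet held 97.0% of control and 92.0% of MMS Trem2 UMIs. They held 80.2% of the control Tyrobp UMIs but 49.8% in MMS, where neutrophil-like cells held 42.9%. Fibroblast-like cells held 98.3% of control and 89.8% of MMS Gpnmb UMIs, and macrophage or monocyte-like cells 0.638% and 1.37%. Apoe UMIs came mainly from macrophage or monocyte-like cells in both libraries (59.5% and 62.4%), and Cd9 and Cd63 UMIs mainly from fibroblast-like cells.

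**Figure D1:**
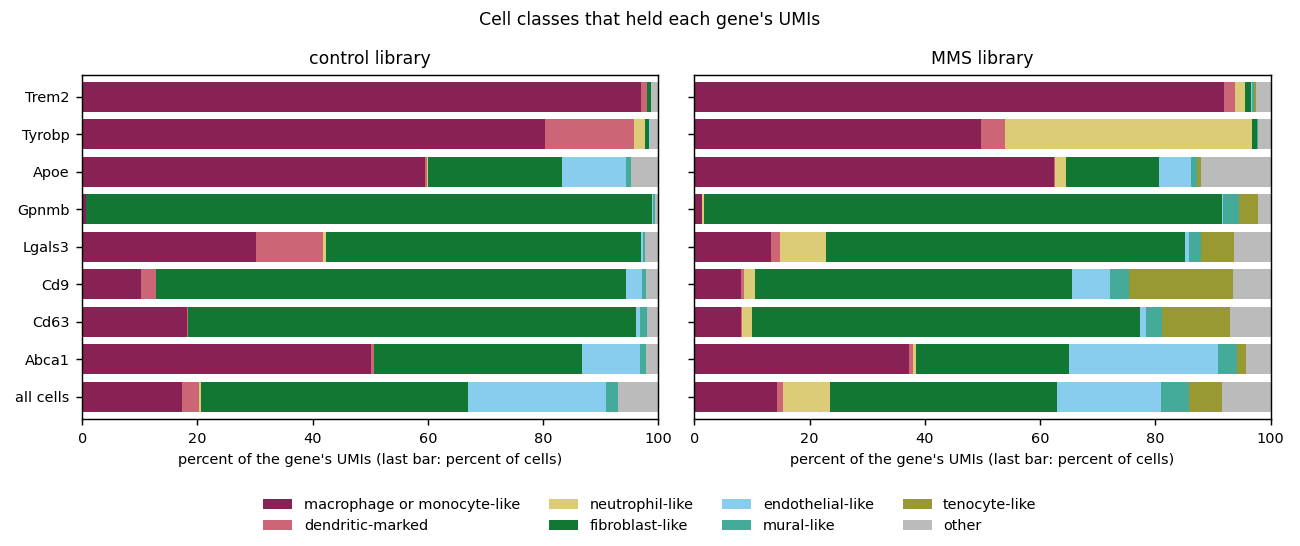
Percent of each gene's UMIs (horizontal axis) held by each cell class in the control and MMS libraries, with the classes' percent of all cells in the last bar. Trem2 sits in the macrophage or monocyte-like class in both libraries, Gpnmb in the fibroblast-like class, and Tyrobp is divided between macrophage-like and neutrophil-like cells in MMS.

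Trem2, the receptor, stood at 605 CPM in control and 899 CPM in MMS macrophage or monocyte-like cells (9516 and 7404 UMIs), a log2 ratio of 0.57 (0.53 to 0.61). It stood at 1.56 and 1.68 CPM in endothelial-like cells, which are not known for it, and at 1.11 and 2.14 CPM in fibroblast-like cells. Of the 87 Trem2 UMIs of MMS fibroblast-like cells, 45 lay in a sub-cluster of 46 cells led by Lyz2, S100a9 and C1qa, which carried macrophage markers. Without the sub-clusters that scored high for another class's markers, the fibroblast levels were 0.965 and 1.06 CPM. The part of free RNA in these low levels was not tested. After thinning, a Trem2 UMI was found in 54.7% (51.8 to 57.6) of control and 75.4% (71.5 to 79.0) of MMS macrophage or monocyte-like cells. Without thinning the shares were 79.4% and 94.1%, at median depths of 12666.5 and 14556 UMIs. In endothelial-like cells the thinned shares were 0.400% and 0%, the latter over 654 cells, at median depths of 3931 and 7586 UMIs.

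**Figure D2:**
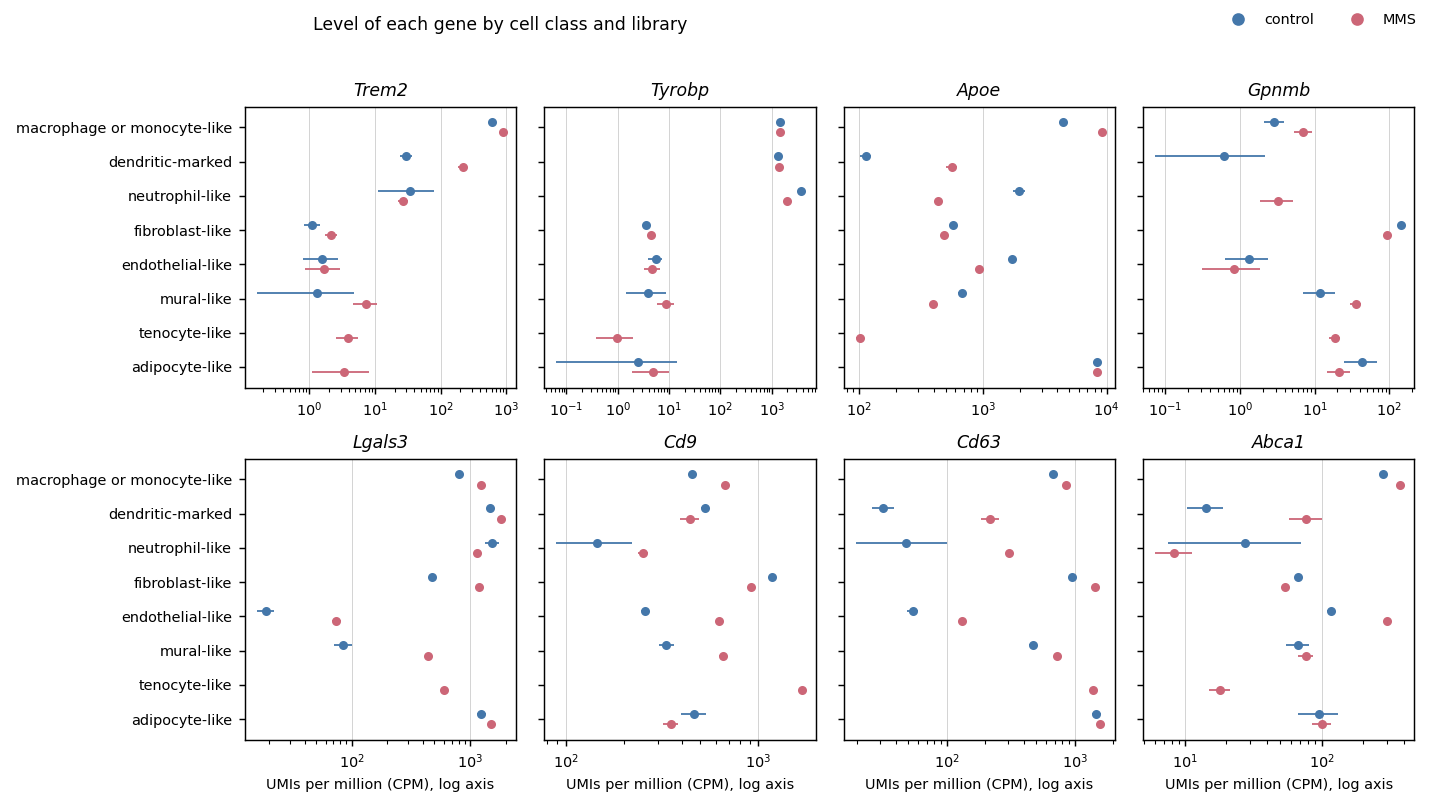
Level of each of the 8 genes (CPM, log axis) in 8 cell classes of the control (blue) and MMS (red) libraries; bars are exact Poisson intervals of the UMI sum, and classes with 0 UMIs have no point. Trem2 and Tyrobp are highest in the myeloid classes, while Gpnmb is highest in fibroblast-like cells, at 145 and 93.3 CPM.

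The Trem2 difference between the libraries was small within the cells that read it most. Macrophage or monocyte-like cells were split into sub-clusters without the 8 members among the clustering genes, and those marked by Lyve1 and Cx3cr1 together held 483 control and 205 MMS cells. There Trem2 stood at 1023 and 1129 CPM, a log2 ratio of 0.14 (0.08 to 0.20), and a thinned UMI was found in 83.5% and 89.2% of cells. These were largely different sub-clusters in each library: the Camk2n1 and Vcan sub-cluster (221 and 9 cells) and the Vsig4 and Ctsd sub-cluster (257 and 44) held the control cells, and the Ccl3 and Ch25h sub-cluster (5 and 152), whose top genes also include the neutrophil genes S100a8 and S100a9, held most MMS cells. In the Vsig4 sub-cluster, which both libraries filled, Trem2 was 1139 CPM in control and 1317 CPM in MMS (0.21, 0.11 to 0.31).

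MHC class II macrophage-like cells (219 and 42), which also carry monocyte genes, read far less Trem2: 102 CPM in control and 298 CPM in MMS. That log2 ratio, 1.54 (1.28 to 1.80), rested on 329 and 196 UMIs. It was larger than that of the Lyve1 and Cx3cr1 cells, the only other named macrophage group with at least 20 cells in each library. The Lyve1 resident macrophage-like cells numbered 233 in control and 8 in MMS, too few for a ratio, with 441 and 759 CPM of Trem2. The macrophage-like cells that met no subset's naming rule (257 of 1192 and 288 of 543) had 379 and 809 CPM (1.09, 0.99 to 1.19). Their control cells were mainly the Cd209f sub-cluster (171 and 4 cells). Their MMS cells were mainly the Ctsk and Spp1 (16 and 155) and the Ccl8 (5 and 77) sub-clusters. Values for these cells, here and below, therefore compare largely different sub-clusters. Within the Mucl1, Chil3 and Ccr2 sub-cluster of the MHC class II cells (115 and 26 cells; Ccr2 is a receptor of recruited monocytes) Trem2 was 188 and 464 CPM. Over all sub-clusters with at least 20 cells in a library, Trem2 ran from 1317 CPM in the MMS Vsig4 sub-cluster to 47.9 CPM in the control sub-cluster led by Retnla and Ear2. The control Vsig4 (1106 to 1173) and MMS Ccl3 (1051 to 1133) levels, neighbours near the top, had overlapping intervals, as did the 2 levels of the haemoglobin-led sub-cluster, 675 and 740 CPM. Among the dendritic-marked cells, the control Cd209a sub-cluster had 11.5 CPM. As a class the dendritic-marked cells (209 and 37) had 29.8 and 216 CPM of Trem2, on 99 and 151 UMIs. That log2 ratio, 2.86 (2.48 to 3.24), was larger than that of the MHC class II cells. Apoe (2.31), Cd63 (2.78) and Abca1 (2.45) were also higher in MMS there, and Cd9 was lower (-0.27).

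**Figure D3:**
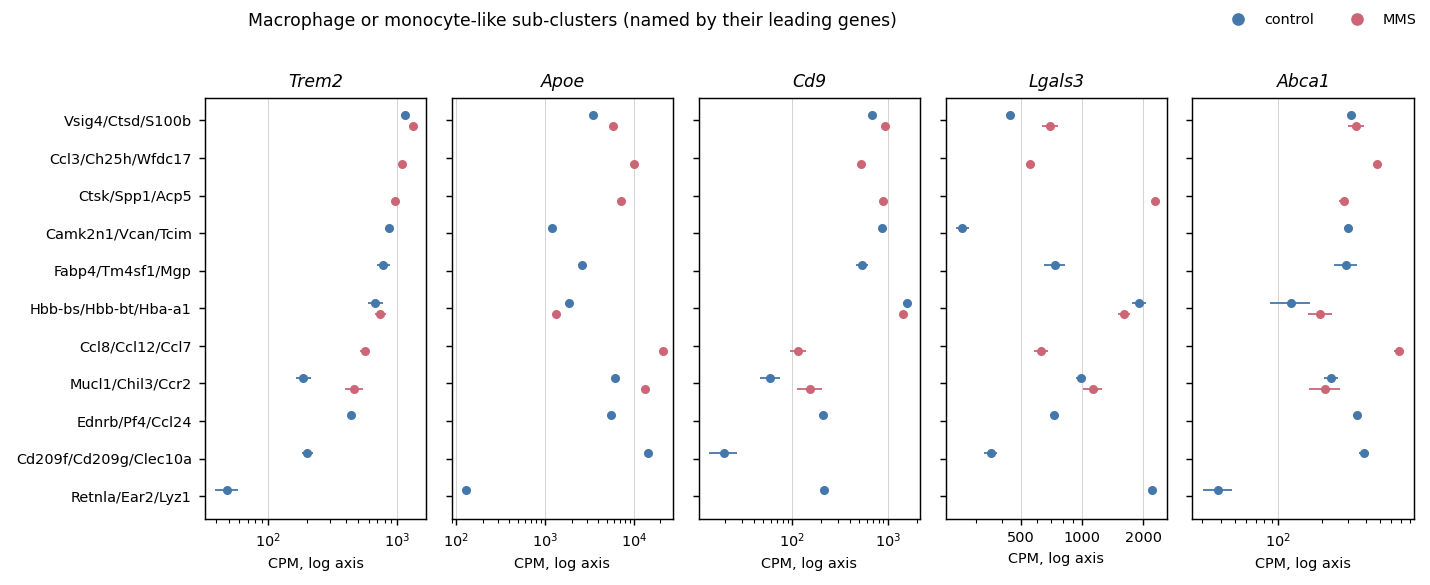
Level of 5 genes (CPM, log axis) in macrophage or monocyte-like sub-clusters with at least 20 cells in that library, named by their leading genes and ordered by Trem2; blue control, red MMS, bars exact Poisson intervals. Apoe and Cd9 do not follow the Trem2 order: the Ccl8 sub-cluster has 21289 CPM of Apoe and 116 CPM of Cd9.

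Tyrobp, the adaptor, barely differed in macrophage or monocyte-like cells, at 1435 and 1460 CPM (log2 0.02, -0.01 to 0.06). Its range over the sub-clusters in that class was narrow beside that of Trem2, from 1128 to 1958 CPM. In MMS neutrophil-like cells it stood at 1955 CPM, and in endothelial-like cells at 5.46 and 4.63 CPM. Of 10 other receptors that pair with DAP12, 7 had at least 10 UMIs in macrophage or monocyte-like cells; 3 were at least 2-fold higher in MMS and 1 at least 2-fold lower. Of all 13204 genes tested there, 4.60% were at least 2-fold higher and 5.21% at least 2-fold lower. The receptor Sirpb1c, one of a family of near-identical genes among which reads may be divided, stood at 1.34 and 16.8 CPM (log2 3.65), and Siglech at 33.2 and 4.98 CPM (-2.74). Of 13 genes of TREM2 and DAP12 signalling and shedding, 0 passed 2-fold in either direction, and their median log2 ratio was 0.21 against 0.01 over all genes tested. The largest of them were Hcst, the companion adaptor DAP10, at 45.6 and 83.7 CPM (0.88), and Card9 at 10.4 and 16.6 CPM (0.68).

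Apoe, the lipid carrier that is also a TREM2 ligand, was the member with the largest difference among those well counted in macrophages. It stood at 4485 CPM in control and 9236 CPM in MMS macrophage or monocyte-like cells (log2 1.04, 1.03 to 1.06). Within the Lyve1 and Cx3cr1 cells it stood at 2559 and 9166 CPM (1.84, 1.81 to 1.87), a 3.58-fold difference, and the thinned share of cells with an Apoe UMI was 48.3% (43.8 to 52.9) and 87.7% (82.4 to 91.9). Within the Vsig4 sub-cluster alone it was 3446 and 5912 CPM (0.78), and within the MHC class II cells 2496 and 6521 CPM (1.39, 1.33 to 1.44). The 233 and 8 Lyve1 resident macrophage-like cells had 5553 and 12590 CPM. The cells of no named subset, which held most of the MMS class, had 9890 and 9651 CPM (-0.04, -0.06 to -0.01). They were largely different sub-clusters in each library, so this ratio does not compare like cells. The haemoglobin-led sub-cluster among them (38 and 47 cells) was lower in MMS, at 1858 and 1349 CPM (-0.46). When cells with over 5% mitochondrial UMIs were left out, which kept 622 control and 161 MMS macrophage or monocyte-like cells, the class value moved to 0.46 and that of the MHC class II cells to -1.04, on 24 MMS cells. The Lyve1 and Cx3cr1 group was found in 4 of 9 other settings, in which its Apoe ratio ran from 1.04 to 1.90.

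Apoe did not follow Trem2 between macrophage sub-clusters. Its highest levels were 21289 CPM in the Ccl8, Ccl12 and Ccl7 sub-cluster (77 MMS cells), whose Trem2 was 562 CPM, and 14404 CPM in the control Cd209f sub-cluster (171 cells), whose Trem2 was 202 CPM. The Camk2n1 sub-cluster, with 856 CPM of Trem2, had 1197 CPM of Apoe. The lowest Apoe level of the class was 131 CPM, in the Retnla sub-cluster, which was also the lowest for Trem2. In the same Ccl8 and Cd209f sub-clusters Cd9 was at its lowest for the MMS and the control library, 116 and 19.2 CPM, although Apoe and Cd9 are both listed as lipid-associated genes.

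Abca1, which exports cholesterol to lipid-poor apolipoproteins, stood at 284 and 376 CPM in macrophage or monocyte-like cells (0.41, 0.34 to 0.47; 0.03 with the 5% mitochondrial limit) and at 312 and 439 CPM in the Lyve1 and Cx3cr1 cells (0.49, 0.40 to 0.59), and at 344 and 362 CPM in the cells of no named subset (0.08, -0.04 to 0.19). Within the Vsig4 sub-cluster, which both libraries filled, Abca1 was 315 and 342 CPM, and the interval of the ratio (0.12, -0.09 to 0.32) included 0. In the 4 other settings in which the Lyve1 and Cx3cr1 group was found, its Abca1 ratio ran from 0.04 to 0.49. The highest Abca1 level among macrophage sub-clusters, 682 CPM, was in the Ccl8 sub-cluster, where Apoe also peaked. In fibroblast-like cells Abca1 was 66.9 and 54.1 CPM as a class (-0.31, -0.39 to -0.23). Within the layers it was 24.8 and 35.2 CPM in lining-like (0.51, 0.27 to 0.74) and 77.7 and 113 CPM in sublining-like cells (0.54, 0.43 to 0.66). Fibroblast-like cells of neither layer, largely different sub-clusters in each library, had 64.6 and 49.7 CPM (-0.38). At matched depth the class ratio was 0.36. Endothelial-like cells had 117 and 303 CPM (1.38, 1.26 to 1.49), and the thinned share of them with an Abca1 UMI was 19.0% and 43.4%. LXR is the sterol-activated receptor that induces cholesterol export. In macrophage or monocyte-like cells 4.60% of all genes tested were at least 2-fold higher in MMS and 5.21% lower. Of 15 other LXR targets and efflux genes there, 4 were at least 2-fold higher and 0 lower. These were Apoc2 at 3.69 and 18.2 CPM (2.30), Mylip, which degrades the LDL receptor, at 36.6 and 108 CPM (1.56), Scd2 (1.26) and the exporter Abcg1 at 28.9 and 68.5 CPM (1.24).

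In the Lyve1 and Cx3cr1 cells 4 of the 14 tested were again at least 2-fold higher, by name Apoc2, Abcg1, Mylip and Scd2, and 0 lower, against 4.24% and 3.75% of all genes tested. The list's median was 0.06 there, and its genes went both ways: the sterol receptor gene Nr1h3 stood at 33.5 and 18.6 CPM (-0.85, -1.27 to -0.44) and Pltp at 2845 and 2007 CPM (-0.50). Of 10 cholesterol synthesis and uptake genes, 0 passed 2-fold in the whole class, where 4.60% of all genes tested were at least 2-fold higher and 5.21% lower. Of 11 lipid uptake and storage genes, 2 were at least 2-fold higher and 1 lower; the fatty acid binding proteins went in opposite directions, Fabp5 at 24.3 and 85.5 CPM (1.81) and Fabp4 at 228 and 93.4 CPM (-1.29). Fabp4 is also an endothelial and adipocyte gene, and it led a sub-cluster of 27 control and 5 MMS cells that carried endothelial markers. Of 12 apolipoproteins and lipoprotein receptors, 10 were tested, 3 were at least 2-fold higher and 1, the receptor Vldlr, lower (3.44 and 1.58 CPM, 13 UMIs in MMS).

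**Figure D4:**
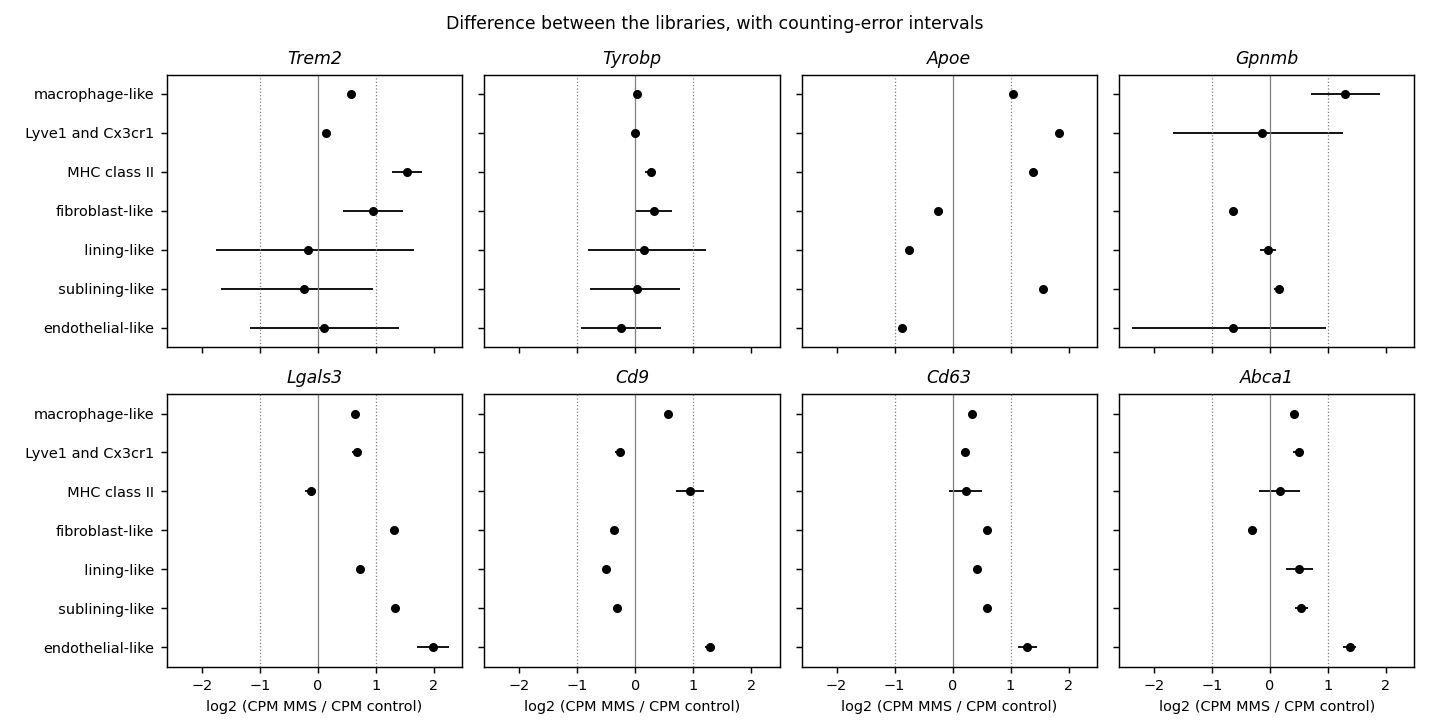
Log2 ratio of MMS over control CPM for each gene in 7 cell groups; bars are exact 95% counting-error intervals, dotted lines mark 2-fold, and groups with under 10 UMIs have no point. Apoe is higher in MMS in the macrophage groups and in sublining-like fibroblasts and lower in fibroblast-like cells as a whole and in endothelial-like cells.

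In fibroblasts, the Apoe comparison depended on which fibroblasts were set against each other. As a class, fibroblast-like cells had 576 CPM in control and 483 CPM in MMS (-0.25, -0.28 to -0.23). In the sublining-like layer (2272 and 385 cells) Apoe stood at 597 and 1751 CPM (1.55, 1.52 to 1.58), and in the lining-like layer (347 and 671 cells), which makes the joint lubricant Prg4, at 292 and 174 CPM (-0.75, -0.83 to -0.67). Fibroblast-like cells of neither layer (579 and 423) had 735 and 196 CPM (-1.91, -1.98 to -1.84), a larger difference than in either layer. These were largely different sub-clusters in each library. The control cells were mainly the Ptn and Crispld2 (233 and 1) and Slurp1 (250 and 14) sub-clusters. The MMS cells were mainly the Spp1 and Cthrc1 (7 and 257) and Mmp13 (2 and 58) sub-clusters. The class held mostly sublining-like cells in control and more lining-like than sublining-like cells in MMS. Compared at matched depth per cell, class levels were 466 and 1136 CPM (1.28), opposite in direction to the unmatched ratio. The depth bins went both ways, from 1.83 in cells of 11585.2 to 16384 UMIs to -1.23 in the deepest bin (75 and 391 cells). Depth also went with layer: the median MMS cell held 32449 UMIs in the lining-like and 19353 in the sublining-like layer. The parts of depth and layer in these values cannot be told apart. The lining-like value also changed sign in 3 of the 9 other cell filters and clusterings, whereas the sublining-like value stayed positive in all 9.

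The MMS sublining-like cells came mainly from 1 sub-cluster, led by Mmp3, Col6a5 and Cyp2f2 (23 control and 311 MMS cells), in which Apoe stood at 213 and 1834 CPM (3.11, 2.87 to 3.36). In the Fmo2 and Gdf10 sub-cluster, which both libraries filled (139 and 45 cells), it was 1383 and 1323 CPM, and the interval of the ratio (-0.22 to 0.09) included 0. A sub-cluster that is mostly 1 library may be that library rather than a cell type. Endothelial-like cells had 1719 and 936 CPM of Apoe (-0.88, -0.92 to -0.83) and adipocyte-like cells 8376 and 8414 CPM. In fibroblast-like cells 2 of 14 tested LXR targets were at least 2-fold higher, the phospholipid transfer protein Pltp at 42.4 and 238 CPM (2.49) and Abcg1 at 1.30 and 4.43 CPM (1.77), beside 9.97% of all 16113 genes tested.

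Gpnmb, widely used as a lipid-associated macrophage marker, was barely read from these macrophages. It stood at 2.86 CPM in control (45 UMIs in 1192 cells) and 7.04 CPM in MMS (58 UMIs in 543 cells), against 1.30 and 0.842 CPM in endothelial-like cells. The log2 ratio, 1.30 (0.71 to 1.89), fell to 0.35 (2.47 and 3.15 CPM) without the sub-clusters that scored high for markers of another class. This kept 1149 control and 383 MMS cells, the haemoglobin-led sub-cluster among them. One sub-cluster left out, led by Ctsk, Spp1 and Acp5 (16 and 155 cells), had 16.6 CPM of Gpnmb in MMS. In MMS it also had 587 CPM of summed fibroblast markers, with all 7 of 7 detected. Spp1 and Acp5 are also listed as lipid-associated macrophage genes. The part of fibroblast RNA in the Gpnmb of that sub-cluster was not tested. In the Lyve1 and Cx3cr1 cells, where Trem2 was highest, Gpnmb was 2.26 and 2.07 CPM, on 15 and 7 UMIs. Of the thinned cells with a Trem2 UMI, 2 of 641 in control and 6 of 401 in MMS also held a Gpnmb UMI. Thinning leaves few Gpnmb UMIs at these levels: only 3 control and 6 MMS cells of the class held one. These counts therefore cannot show how often the 2 genes share a cell. Without thinning, a Gpnmb UMI was found in 3.11% and 2.93% of the Lyve1 and Cx3cr1 cells. In the cells of no named subset the shares were 3.50% and 9.03%.

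In fibroblast-like cells Gpnmb stood at 145 and 93.3 CPM (-0.64, -0.70 to -0.58), and thinned UMIs were found in 22.9% and 16.0% of them. The lower class level in MMS was not found within the named layers but was found outside them: lining-like cells had 70.7 and 69.2 CPM (-0.03, -0.18 to 0.11) and sublining-like cells 159 and 177 CPM (0.15, 0.06 to 0.24), a value whose sign turned in 3 of 9 other settings. Fibroblast-like cells of neither layer, largely different sub-clusters in each library, had 158 and 81.7 CPM (-0.95, -1.07 to -0.83). At matched depth the class levels were 142 and 144 CPM. Between sub-clusters the gene ranged from 347 and 294 CPM (MMS and control) in the Fmo2 and Gdf10 sub-cluster and 296 CPM in the control Ptn and Crispld2 sub-cluster to 31.8 CPM in the MMS Col22a1, F13a1 and Prg4 sub-cluster. The 3 highest of these levels had overlapping intervals. The lowest were in Clic5 or Prg4 lining-like cells of both libraries.

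**Figure D5:**
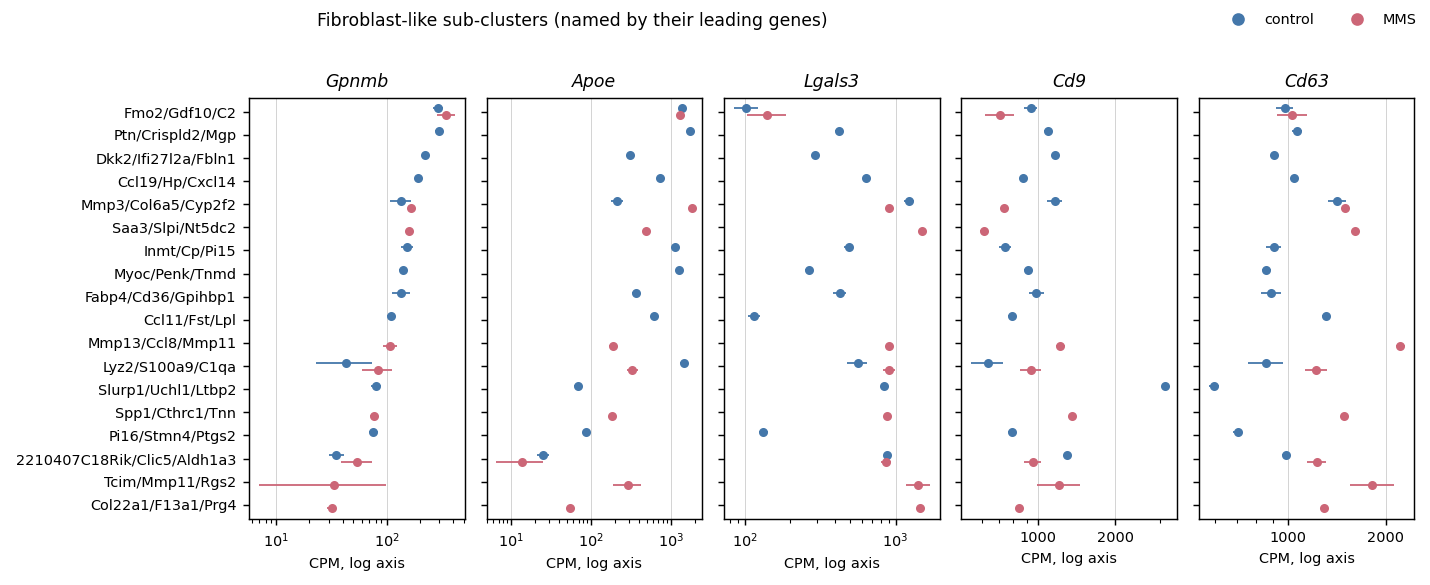
Level of 5 genes (CPM, log axis) in fibroblast-like sub-clusters with at least 20 cells in that library, named by their leading genes and ordered by Gpnmb; blue control, red MMS, bars exact Poisson intervals. Gpnmb falls from 347 to 31.8 CPM from top to bottom, and Apoe spans a wider range, from 1834 to 13.6 CPM.

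A list of lysosomal genes and of the MITF and TFE factors themselves covers the setting in which Gpnmb is usually read. Its median log2 ratio was 0.27 in macrophage or monocyte-like cells, against 0.01 over all genes tested. Of 20, 2 were at least 2-fold higher in MMS and 0 lower, beside 4.60% and 5.21% of all genes: the proton pump subunit Atp6v0d2, also an osteoclast gene, at 4.13 and 17.1 CPM (2.05) and the factor Tfec at 16.4 and 34.4 CPM (1.07). In fibroblast-like cells 19 were tested, 1 was higher and 1 lower, beside 9.97% and 9.72% of all genes. Those were Atp6v0d2 at 1.72 and 3.59 CPM and the macrophage gene Cd68 at 7.16 and 3.52 CPM.

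Lgals3, a lectin that binds glycans at the cell surface and on damaged lysosomes, was higher in MMS in both main classes. In fibroblast-like cells it stood at 480 and 1186 CPM (1.31, 1.28 to 1.33), and it was the 1 member of 8 at least 2-fold higher there; 0 were lower, and 9.97% and 9.72% of all genes tested were higher and lower. Lining-like cells had 871 and 1446 CPM (0.73) and sublining-like cells 336 and 844 CPM (1.33). In the Clic5 lining-like sub-cluster (210 and 25 cells) the levels were 873 and 863 CPM, and in the Mmp3 sub-cluster 1229 and 906 CPM. In the Fmo2 and Gdf10 sub-cluster they were 103 and 141 CPM, and the interval of the ratio (-0.06 to 0.96) included 0. Of the sub-clusters that both libraries filled, only that led by Lyz2, S100a9 and C1qa had an interval above 0. It carried macrophage markers, and its levels were 560 and 909 CPM (0.70, 0.44 to 0.96). At matched depth the class ratio was 0.66.

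In macrophage or monocyte-like cells Lgals3 stood at 802 and 1247 CPM (0.64, 0.60 to 0.68). Its 2 highest sub-clusters were the Ctsk and Spp1 sub-cluster in MMS, at 2284 CPM, and the Retnla sub-cluster in control, at 2218 CPM, and these stand far apart in Trem2 (963 and 47.9 CPM). The Ctsk and Spp1 sub-cluster was among those that scored high for another class's markers. Without all of those sub-clusters the class levels were 763 and 815 CPM, a log2 ratio of 0.10. In the Lyve1 and Cx3cr1 cells the levels were 366 and 582 CPM (0.67, 0.58 to 0.75), in the cells of no named subset 837 and 1748 CPM (1.06), and in the MHC class II cells 1740 and 1596 CPM (-0.13, -0.22 to -0.03). Endothelial-like cells had 18.7 and 74.1 CPM.

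Beside these values, summed markers of other cells were higher in the MMS macrophage or monocyte-like class: 8 neutrophil markers at 10.3 and 148 CPM (4 and 7 detected, with Ly6g at 0 in both), 6 lining fibroblast markers at 56.7 and 232 CPM, and 7 osteoclast markers at 26.7 and 346 CPM (5 detected in each, Calcr and Oscar at 0). Their part in the member values was not tested beyond leaving out the sub-clusters concerned. Of 15 other lipid-associated macrophage genes, 13 were tested in this class, 4 were at least 2-fold higher and 0 lower, beside 4.60% and 5.21% of all genes tested. The secreted phosphoprotein Spp1 stood at 4.33 and 155 CPM (5.16) and the phosphatase Acp5 at 5.15 and 92.8 CPM (4.17), both of which osteoclasts also make, and Spp1 stood at 639 CPM in MMS fibroblast-like cells. The list's median, 0.03, was close to that of all genes tested.

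The tetraspanins Cd9 and Cd63, membrane organisers found on the cell surface and on late endosomes, parted company in fibroblasts. Cd9 stood at 1178 and 916 CPM in fibroblast-like cells (-0.36, -0.38 to -0.34), and was lower in MMS in lining-like (1112 and 781 CPM) and in sublining-like cells (916 and 735 CPM). Cd63 stood at 949 and 1440 CPM (0.60, 0.58 to 0.62), and was higher in both layers, at 1027 and 1376 CPM and at 967 and 1463 CPM. Within sub-clusters that both libraries filled, the Cd63 intervals included 0 in the Fmo2 (-0.10 to 0.25) and Mmp3 (-0.02 to 0.17) cells. In the Clic5 lining-like cells Cd63 was higher (0.31, 0.21 to 0.41). Cd9 was lower in these sub-clusters (-0.40, -0.65 and -0.45). In the macrophage-marked Lyz2 sub-cluster Cd9 (0.56) and Cd63 (0.51) were both higher. Outside the layers, where the libraries held largely different sub-clusters, Cd9 stood at 2127 and 1319 CPM (-0.69) and Cd63 at 819 and 1551 CPM (0.92). The direction of each was the same in all 13 other settings tried for the class. The highest Cd9 level among fibroblast sub-clusters, 3144 CPM, was in the control Slurp1 and Uchl1 sub-cluster, which had the lowest Cd63 level, 594 CPM.

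In macrophage or monocyte-like cells Cd9 stood at 451 and 671 CPM (0.57, 0.52 to 0.62) and Cd63 at 672 and 850 CPM (0.34, 0.30 to 0.38). Within the Lyve1 and Cx3cr1 cells Cd9 stood at 750 and 623 CPM (-0.27, -0.34 to -0.19), but the Vsig4 sub-cluster had 680 and 935 CPM (0.46), and the sign for the whole group turned in 3 of the 4 other settings in which that group was found. The MHC class II cells had 156 and 301 CPM of Cd9 (0.95) and the cells of no named subset 342 and 781 CPM (1.19). Endothelial-like cells had 257 and 626 CPM of Cd9 (1.28, 1.21 to 1.36) and 54.0 and 132 CPM of Cd63 (1.29, 1.12 to 1.46). Of 10 other tetraspanins, 0 were at least 2-fold higher and 1 lower in macrophage or monocyte-like cells, beside 4.60% and 5.21% of all genes. The lower one was Tspan15, on 29 and 5 UMIs (-1.60). Under 2-fold, Cd81 stood at 605 and 323 CPM (-0.90) and Tspan4 at 63.2 and 107 CPM (0.76). In fibroblast-like cells 2 were higher and 0 lower, beside 9.97% and 9.72% of all genes: Tspan15 at 107 and 237 CPM (1.15) and Cd82 (1.09).

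Taken as a list, 2 of the 8 members, Apoe and Gpnmb, were at least 2-fold higher in MMS macrophage or monocyte-like cells and 0 lower, with a median log2 ratio of 0.57, where 9.82% of all genes tested were past 2-fold in either direction (19.7% in fibroblast-like cells). The count was 1 without sub-clusters that scored high for another class's markers, where Gpnmb stood under 2-fold. It was 0 with doublets kept, where Apoe stood at 0.99 and Gpnmb at 0.33. In the Lyve1 and Cx3cr1 cells 1 of 8, Apoe, was at least 2-fold higher and 0 lower, and the median was 0.18. Of all genes tested there, 4.24% were at least 2-fold higher and 3.75% lower. A median of 4 members was found per thinned macrophage or monocyte-like cell in control and 5 in MMS, and 66.8% and 86.8% of these cells held UMIs of 4 or more members.

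Across 54 points (the sub-clusters and remaining classes of each library, which share 2 libraries and differ in depth), the genes most like each member by Pearson's r of log2(CPM + 1) are given as a description. Trem2 was closest to the macrophage genes Msr1 (0.97), Adgre1 (0.96) and Csf1r (0.95), and Tyrobp to Fcer1g (0.99), Cd53 (0.98) and Arhgap30 (0.98). Gpnmb was closest to the fibroblast genes Dcn (0.95), Gas1 (0.94) and Pdgfra (0.94), and its r with Trem2 was -0.70. Apoe was closest to Selenop (0.80), Cflar (0.72) and another member, Abca1 (0.71), and Abca1 to Selenop (0.85), Wwp1 (0.83) and Glul (0.83). The nearest to Lgals3 were Mcub (0.71), Hps1 (0.71) and Gpx1 (0.71), and to Cd9 Tuba1a (0.79), Arhgef40 (0.77) and Phldb1 (0.75). Cd63 was closest to Mir99ahg (0.89), Colec12 (0.88) and Rab34 (0.88). The r of Trem2 was 0.82 with Tyrobp, 0.48 with Apoe and -0.31 with Cd9.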

How the data were processed

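Matrices of UMI counts per gene and cell were deposited by the authors for each library. The matrix headers name Cell Ranger 5.0.0, whereas the submitters' processing notes name 2.0.0 and build mm10; the cell barcodes had been called before deposit, and ambient RNA removal is not given in the sources used here. Cells with at least 1000 UMIs, 500 genes and at most 10% mitochondrial UMIs were kept, and scrublet calls (expected rate 0.06) were removed. Cells of both libraries were clustered together with scanpy 1.11.5 (2000 variable genes, 30 components, 15 neighbours, Leiden resolution 1.0), and macrophage and fibroblast cells again without the members (resolution 1.0). Names came from marker lists; the thresholds of naming, and the exclusion of dendritic-marked sub-clusters, were set after the clusters were seen. The members and gene lists were chosen with earlier results of these data known.

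UMIs were summed per cell group and library and given as CPM. Ratios have exact conditional binomial 95% intervals, levels exact Poisson and shares Clopper-Pearson intervals. A gene with at least 10 UMIs over both libraries was counted past 2-fold. Matched depth compares cells within bins of 0.5 log2 units of total UMIs, weighted alike in both libraries. Named genes were all members, in each list the 2 genes of largest ratio with at least 50 UMIs in the higher library, and the 3 genes most like each member; any further gene, such as Scd2 or Abcg1, was picked with its values known. Some genes that this rule names are not reported here. The ratio calculation was tested on simulated counts. Scaling alternatives used the TMM factors of edgeR 4.0.16. Gene positions are from GENCODE (GRCm38); 32235 of 32285 IDs matched.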

Additional observations from a re-analysis of the deposited data

Results flagged for a closer look

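For 4 members the 2 main classes differed in direction between the libraries. The log2 ratio of MMS over control in macrophage or monocyte-like cells minus that in fibroblast-like cells was 1.29 for Apoe (1.04 and -0.25), 1.94 for Gpnmb (1.30 and -0.64), 0.94 for Cd9 (0.57 and -0.36) and 0.71 for Abca1 (0.41 and -0.31). For Abca1 and Apoe the fibroblast direction was not general: Abca1 was higher in MMS in both the lining-like (0.51) and sublining-like (0.54) cells and Apoe in the sublining-like cells, and at matched depth the fibroblast class ratios were 0.36 for Abca1, 1.28 for Apoe and 0.02 for Gpnmb, against -0.49 for Cd9. In the unmatched class values both counting intervals excluded 0 on opposite sides. Apoe also differed between the fibroblast layers, by 2.30 (sublining-like minus lining-like), and the lining-like value changed sign in 3 of 9 other settings. With 1 library per group none of these differences was tested.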

How the results depend on the processing

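No paired analysis was possible because each group holds 1 library, which also means that no library could be left out. Doublets kept gave 0 members past 2-fold in macrophage or monocyte-like cells and 3 in fibroblast-like cells; a 5% mitochondrial limit likewise gave 3 in fibroblast-like cells. Both times these were Trem2 and Tyrobp, which are low there, beside Lgals3. In macrophage or monocyte-like cells the count was 1 with the mean over cells of CPM. It was also 1 without sub-clusters that scored high for another class's markers (an alternative added after seeing the data). Signs turned as follows. For Apoe, fibroblast-like cells gave 0.028 at 5% mitochondrial UMIs and 0.18 as a mean over cells, lining-like cells 1.72 at a minimum of 2000 UMIs, 0.96 with doublets kept and 1.59 at Leiden resolution 0.5, and MHC class II cells -1.04 at 5% mitochondrial UMIs. For Gpnmb, sublining-like cells gave -0.13 at 20% mitochondrial UMIs, -0.17 at resolution 2.0 and -0.21 at sub-cluster resolution 0.5. For Cd9, Lyve1 and Cx3cr1 cells gave 0.022 with doublets kept, 0.27 with the members among the clustering genes and 0.51 at sub-cluster resolution 0.5, and MHC class II cells -0.030 at resolution 2.0. In MHC class II cells Tyrobp gave -0.041 at 2000 UMIs and Lgals3 0.20 at 5% mitochondrial UMIs. In fibroblast-like cells Tyrobp gave -0.23 without sub-clusters that scored high for another class's markers. The cause was not tested. The Trem2 ratio in macrophage or monocyte-like cells ran from 0.44 to 0.74 over 14 settings, that of Lgals3 in fibroblast-like cells from 1.25 to 1.55 over 13, and that of Gpnmb in macrophage or monocyte-like cells, on few UMIs, from 0.33 to 3.76. The Lyve1 and Cx3cr1 group gave a value in 4 of 9 other filters and clusterings. Of 216 class values 137 lay within the counting interval first given, 76 outside it and 3 on the other side of 0. Of 224 values of subsets and layers the numbers were 112, 99 and 13. TMM factors and median of ratios shifted the median class ratio by -0.024 to -0.062 on the log2 scale. Shares of cells with a UMI move with depth by construction, as thinning removes UMIs.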
